A study of Mus musculus with 14 samples.

Results

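The albumin family of serum proteins and the pair of repressors that act on its fetal member were followed in mouse liver after deletion of Mettl3. The 6 genes are Alb, Afp, Afm, Gc, Zhx2 and Zbtb20, taken by symbol from a table of 54446 genes, and all 6 passed the filter on low values, which 23554 genes passed. Liver RNA came from C57BL/6 mice at 5 weeks of age. The control group (6 libraries) had floxed Mettl3 alleles and no Cre named in its genotype. The knockout group (8 libraries) had the same floxed alleles and Alb-Cre, a recombinase driven by regulatory sequence of Alb itself and active in hepatocytes. Both groups share the floxed alleles, and no Cre-only group was analysed here, so an effect of Cre and an effect of the deletion cannot be told apart. Mettl3 encodes the catalytic subunit of the enzyme that places m6A, a methyl mark on adenosines of mRNA.

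Alb, Afp and Afm descend from duplications of 1 ancestral gene and lie side by side, and Gc is a more distant relative on the same chromosome. Albumin is the main protein of plasma and carries fatty acids, bilirubin and hormones. Alpha-fetoprotein is its fetal counterpart, which the liver makes before birth and shuts off in the first weeks after it, and which returns in regenerating liver and in liver tumours. Afamin carries vitamin E, and the product of Gc carries vitamin D and binds free actin. Zhx2 (a zinc finger and homeobox protein) and Zbtb20 (a zinc finger and BTB domain protein) are both known from mice in which their loss keeps Afp on in adult liver.

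On GRCm38, Alb (ENSMUSG00000029368) lies at chromosome 5, 90460897 to 90476602, and Afp (ENSMUSG00000054932) at 90490737 to 90508907. Afm (ENSMUSG00000029369) follows at 90518932 to 90553543, and all 3 are on the plus strand within 92.6 kb. The gap from Alb to Afp is 14135 bases and the gap from Afp to Afm is 10025 bases. Gc (ENSMUSG00000035540), at 89417522 to 89457898 on the minus strand, is 1003 kb away from Alb. Zhx2 (ENSMUSG00000071757) is at chromosome 15, 57694665 to 57839832, and Zbtb20 (ENSMUSG00000022708) at chromosome 16, 42875881 to 43642602, both on the plus strand.

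The promoters are shown because 3 of the 4 family members moved the same way, as set out further on, and the windows hold letters that the family has in common. Each sequence runs from 250 bases before to 50 bases after the RefSeq start on GRCm38.p6, in the direction of the gene. Capitals mark the letters GTTAATNAT, in which N is any base. Albfm1, a further member of the albumin superfamily that lies just after Afm, is the gene listed as 5830473C10Rik in the deposited table.
Alb (chr5:90460620-90460919, plus strand): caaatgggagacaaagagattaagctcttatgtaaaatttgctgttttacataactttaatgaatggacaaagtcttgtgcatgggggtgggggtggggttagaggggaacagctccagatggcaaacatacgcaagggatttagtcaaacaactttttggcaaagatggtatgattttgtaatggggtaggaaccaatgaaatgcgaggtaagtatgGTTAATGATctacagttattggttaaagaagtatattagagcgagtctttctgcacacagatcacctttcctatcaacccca
Afp (chr5:90490464-90490763, plus strand): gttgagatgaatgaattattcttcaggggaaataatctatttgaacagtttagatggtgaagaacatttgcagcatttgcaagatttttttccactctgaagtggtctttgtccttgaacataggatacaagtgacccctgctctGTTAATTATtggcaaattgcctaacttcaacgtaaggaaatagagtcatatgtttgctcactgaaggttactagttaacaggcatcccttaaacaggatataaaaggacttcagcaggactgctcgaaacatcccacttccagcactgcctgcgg
Afm (chr5:90518699-90518998, plus strand): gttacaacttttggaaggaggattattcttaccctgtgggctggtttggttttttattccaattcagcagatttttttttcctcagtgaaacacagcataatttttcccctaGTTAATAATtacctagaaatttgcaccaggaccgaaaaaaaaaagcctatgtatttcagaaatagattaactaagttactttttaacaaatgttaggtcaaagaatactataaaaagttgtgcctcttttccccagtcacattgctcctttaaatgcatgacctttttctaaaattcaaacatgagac
Gc (chr5:89457849-89458148, minus strand): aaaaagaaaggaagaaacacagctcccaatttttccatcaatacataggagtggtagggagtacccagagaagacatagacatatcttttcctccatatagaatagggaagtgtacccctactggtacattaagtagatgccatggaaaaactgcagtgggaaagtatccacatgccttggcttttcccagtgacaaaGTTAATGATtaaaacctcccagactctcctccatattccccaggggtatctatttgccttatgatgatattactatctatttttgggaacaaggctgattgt
Albfm1 (chr5:90560959-90561258, plus strand): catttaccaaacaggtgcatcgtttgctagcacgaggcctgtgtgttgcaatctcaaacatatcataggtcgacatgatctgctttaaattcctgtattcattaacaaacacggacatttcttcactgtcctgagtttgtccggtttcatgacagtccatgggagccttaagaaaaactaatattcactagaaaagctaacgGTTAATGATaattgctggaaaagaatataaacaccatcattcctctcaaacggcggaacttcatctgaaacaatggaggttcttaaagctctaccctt

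The 9 letters were present in 4 of 4 promoters of the family and in that of Albfm1, each time on the strand of the gene. They began 32 bases before the start in Alb, 105 in Afp, 138 in Afm, 52 in Gc and 48 in Albfm1. On either strand, 263 of 32851 promoters of the same length (0.801%) held them, and so did 1 of the 15 promoters found for other plasma proteins. This 9-letter form was chosen after the sequences were seen. Of the searches listed at the outset, the shorter GTTAAT was in the same 5 promoters against 7.1% of all promoters. A 13-letter extension of it was in none of the members' promoters and in 0.00913% of all. CCAAT was in all 5 promoters of members, that of Zbtb20 included, and in 37.4% of all. The Zbtb20 window, at chromosome 16, 43247034 to 43247333, lies inside the span of the gene given above, so its start is an internal one. Its CCAAT match begins 10 bases after that start. TTGCGCAA was in none of the members' promoters and in 0.183% of all. The octamer TTATGTAA, bound by PAR bZIP factors such as Dbp, occurred at positions -223 (plus strand) and -204 (minus strand) of the Alb promoter and in 0.938% of all promoters. Both matches lie outside the capitalised letters. TATAAA, the TATA box, was in the Afp, Afm and Albfm1 promoters and in 13.6% of all. These matches describe the windows printed. Of the members, 5 of 6 had a promoter in the table used, and Zhx2 had none in it.

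The values below are normalised estimated counts per gene and library. Depth ran from 11.1 to 33.8 M estimated reads per library (M, megareads). The targeted gene, Mettl3, was lower in knockouts, with a mean of 99.5 ± 15.7 (SD, n = 8) against 223 ± 23.7 (SD, n = 6) and a log2 change of -1.17 (limma, SE 0.12, adjusted p = 1.32e-05). Across all genes tested, the median log2 change was 0.05. Scaled to equal sums outside ribosomal RNA, it moved up by 0.33, so all changes given here hold for the size factors of the authors. With those, 2697 genes were called higher and 2583 lower, and under equal sums 7836 and 868, so that 90.0% of calls were higher in place of 51.1%. As shares of all genes tested, equal sums called 33.3% higher and 3.69% lower, and quantile normalization 10% and 10.2%. Replicates 1 to 4 of both groups carried Y-linked RNA, and control 5 and 6 and knockout 5 to 8 had Xist values above 1000. These Y-positive and Xist-high libraries also differed in depth, at 24.3 to 33.8 M and 11.1 to 19.3 M. On the first principal component knockouts 6, 7 and 3 scored 99.7, 96.3 and 61.5, and the remaining knockouts -10.7 to 27.6. In bulk RNA, fewer hepatocytes and less RNA per hepatocyte cannot be told apart. The labels do not say that each library is a separate animal, so p-values measure the spread between these libraries.

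Alb, Afm and Gc fell in knockouts and no knockout reached the lowest control for any of the 3, while Afp, Zhx2 and Zbtb20 did not pass the test. Afm fell most, by 1.54 on the log2 scale, followed by Alb at 1.07 and Gc at 0.39. Thus 3 of 6 members were called lower and 0 of 6 higher, where 11% of all genes tested were called lower, 11.5% higher and 22.4% in either direction. Ranges that did not overlap, with every knockout below every control, were found for 3 of 6 members and 4.02% of all genes tested; the opposite, every knockout above every control, was found for 0 of 6 and 4.14%. Under equal sums the counts were 2 lower (Alb and Afm) and 1 higher (Zbtb20), after quantile normalization 1 lower (Afm), and without knockouts 6 and 7 Gc did not pass (limma adjusted p = 0.0568) and 2 were lower, with 10.3% of all genes called lower there.

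**Figure D1:**
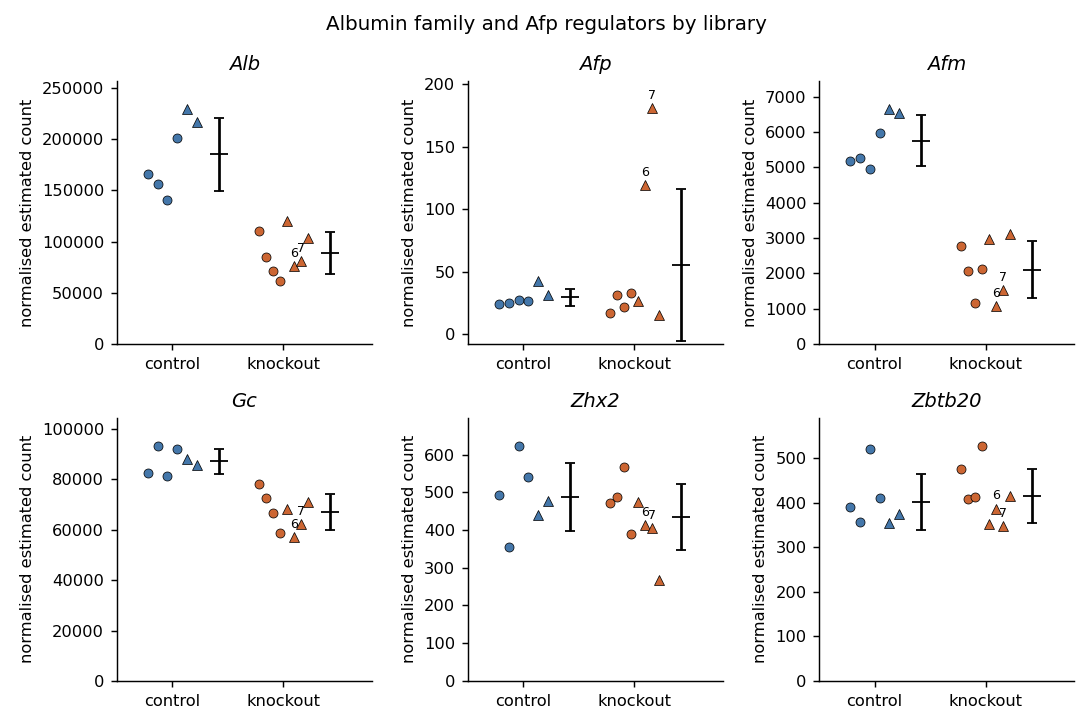
Normalised estimated count (y axis, linear) of each of the 6 genes in the 6 control (blue) and 8 knockout (orange) libraries, with replicates in order of their number from left to right. Circles are Y-positive and triangles Xist-high libraries, bars give the mean and SD, and the labels 6 and 7 mark knockouts 6 and 7: the groups separate for Alb, Afm and Gc, and Afp is high in those 2 knockouts only, at 119 and 181.

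For Alb, the 6 controls had values of 166379, 156746, 140884, 201300, 229192 and 216567. The 8 knockouts had 110099, 85493, 71232, 61317, 120119, 76245, 81560 and 103611. The highest knockout, replicate 5, stayed below the lowest control, replicate 3. The means were 185178 ± 35514 (SD, n = 6) and 88709.5 ± 20489.5 (SD, n = 8), a log2 difference of -1.07 (limma, SE 0.19, adjusted p = 0.00105). The authors' deposited table also passed Alb, with a q of 0.00335, and it passed 2 of the 6 members (Alb and Afm) and 17.1% of the genes it tested. As a share of all values outside ribosomal RNA, Alb went from 0.860% ± 0.215 (SD, n = 6) to 0.513% ± 0.0978 (SD, n = 8). The change was -1.04 in Y-positive libraries (limma adjusted p = 0.0198) and -1.25 in Xist-high libraries, where it did not pass (adjusted p = 0.170). The difference between the classes did not pass either (interaction -0.21, limma adjusted p = 0.929), nor did it for any of the 6 members, where 0.0552% of all genes passed. After quantile normalization Alb had -0.63 and no longer passed (limma adjusted p = 0.0857).

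Afm, the vitamin E carrier, had control values of 5174, 5265, 4960, 5962, 6641 and 6542. The knockouts had 2789, 2059, 1171, 2126, 2984, 1071, 1544 and 3120. No knockout came near the controls, and the lowest 3 were the libraries that lay apart, replicates 6, 3 and 7. On the log2 scale the change was -1.54 (limma, SE 0.23, adjusted p = 0.000303), from 5757 ± 729 (SD, n = 6) to 2108 ± 804 (SD, n = 8). Without knockouts 3, 6 and 7 it was -1.15 and passed. Relative to its mean the spread of Afm was 12.7% in controls and 38.2% in knockouts, compared with 19.2% and 23.1% for Alb. The class with Xist above 1000 gave -1.73 and, with 6 libraries, did not pass on its own (limma adjusted p = 0.116).

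Gc, the vitamin D carrier, moved least of the 3. Its controls had 82686, 93314, 81324, 92210, 88193 and 85795, and its knockouts 78301, 72462, 66851, 58738, 68123, 57329, 62306 and 71024. Every knockout lay below every control, but the gap was narrow, from 78301 in knockout 1 to 81324 in control 3. Means of 87254 ± 4906 (SD, n = 6) and 66892 ± 7159 (SD, n = 8) gave a log2 change of -0.39 (limma, SE 0.12, adjusted p = 0.0336). The authors' deposited table did not pass Gc (q = 0.342). The call was lost under equal sums, at -0.05 (limma adjusted p = 0.760), where the median of all genes was 0.38. The sign turned after quantile normalization, at 0.19. As a share outside ribosomal RNA, Gc was 0.403% ± 0.0425 (SD, n = 6) in controls and 0.389% ± 0.0379 (SD, n = 8) in knockouts. Knockouts 3, 6 and 7 also had the lowest sums over 8 hepatocyte markers, Alb among them, at 473036, 395207 and 405956 against 652627 to 851918 in the rest and 876326 to 1058910 in controls, and the part of this in the changes of Alb, Afm and Gc was not tested.

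**Figure D2:**
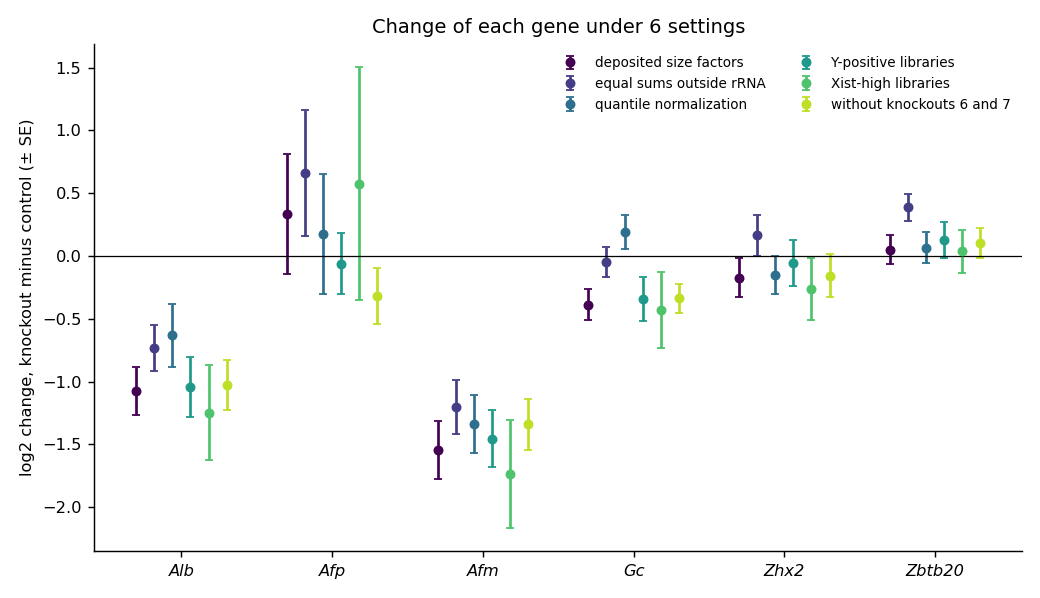
Log2 change, knockout minus control, with its SE (y axis) for each gene (x axis) under 6 settings, in colour: the deposited size factors, equal sums outside ribosomal RNA, quantile normalization, each class of libraries alone, and without knockouts 6 and 7. Alb and Afm lie below 0 under all 6, Gc moves from -0.43 to 0.19, and Afp lies on both sides of 0.

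A ratio of 2 genes within a library does not depend on the size factor of that library, so the members were set against Alb. Gc rose relative to Alb, from 48.5% ± 8.89 (SD, n = 6) of the Alb value to 77.8% ± 13.2 (SD, n = 8). In knockouts the log2 ratio was higher by 0.68, above the control mean in 8 of 8 knockouts (exact permutation test, two-sided, p = 0.00133, adjusted over 3 ratios 0.00400). Afm fell further than Alb, from 3.15% ± 0.244 (SD, n = 6) to 2.36% ± 0.691 (SD, n = 8) of the Alb value. The difference in log2 ratio was -0.47, below the control mean in all but 1 of 8 knockouts (exact permutation p = 0.0260, adjusted 0.0286). The Afp ratio was 0.0167% ± 0.00255 (SD, n = 6) in controls and 0.0701% ± 0.0772 (SD, n = 8) in knockouts. Its log2 difference was 1.41, above the control mean in 7 of 8 knockouts (exact permutation p = 0.0286, adjusted 0.0286). Alb itself fell, so a higher ratio to it can come with a lower level, as for Gc with the size factors of the authors. The level of Gc changed by -0.05 under equal sums and by 0.19 after quantile normalization. Neither change passed (limma adjusted p = 0.760 and 0.354). Without knockouts 6 and 7 the Afp ratio (0.71) and the Afm ratio (-0.31) no longer passed (exact permutation adjusted p = 0.0519 for both), and both also lost the call without control 1, 4 or 6.

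**Figure D3:**
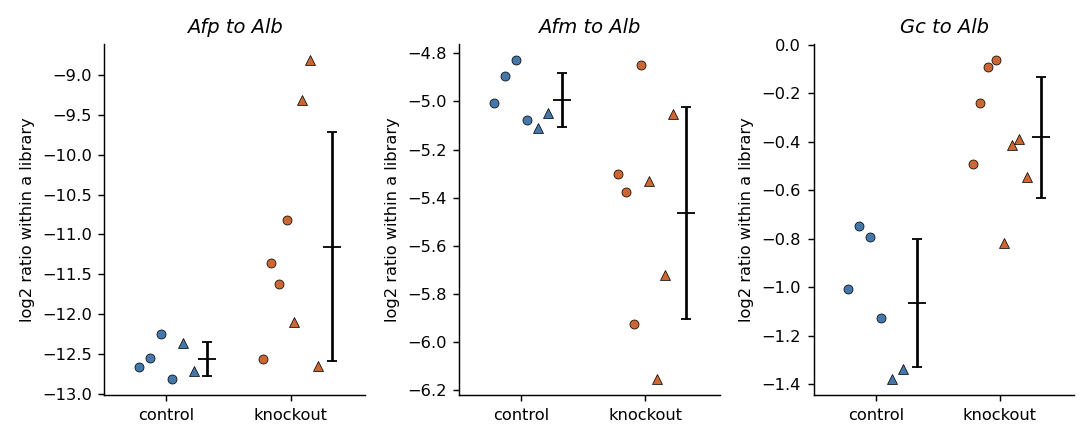
Log2 ratio of Afp, Afm and Gc to Alb within each library (y axis), for 6 control (blue) and 8 knockout (orange) libraries, with the mean and SD beside the points, circles for Y-positive and triangles for Xist-high libraries. The Gc ratio averages -1.06 in controls and -0.38 in knockouts, the Afm ratio -4.99 and -5.46, and the Afp ratio -12.56 and -11.15 with 2 knockouts far above the rest.

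Afp had low values in both groups, apart from 2 knockout libraries. The controls had 24.6, 25.3, 27.9, 27.0, 42.4 and 31.1. The knockouts had 17.2, 31.6, 21.7, 33.1, 26.4, 119, 181 and 15.1. Knockouts 6 and 7 lay above all other libraries, the other 6 knockouts lay within or below the control range, and the groups overlapped. In estimated reads, knockouts 6 and 7 held 103 and 113, the other knockouts 9.37 to 43.8 and the controls 19.9 to 38.4. The mean was 29.7 ± 6.64 (SD, n = 6) in controls and 55.6 ± 60.8 (SD, n = 8) in knockouts, and the difference of 0.34 on the log2 scale did not pass (limma, SE 0.48, adjusted p = 0.661). Without knockouts 6 and 7 the sign turned, to -0.32, and the test did not pass (limma adjusted p = 0.347). It also turned in Y-positive libraries, at -0.06, against 0.58 in Xist-high libraries, and the difference between the classes did not pass (interaction 0.64, limma adjusted p = 0.909). No 31-base stretch of the Afp transcripts, nor of those of Alb or Gc, occurred in transcripts of another gene. Of the 31-base stretches of Afm, 2.67% did, all in Gm42109, a noncoding gene that overlaps it on the opposite strand, and of those of Zhx2 and Zbtb20 0.0909% and 0.681% did.

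Knockouts 6 and 7 stood apart in more than Afp. Their mitochondrial protein-coding RNA was 8.60% and 8.96% of the values outside ribosomal RNA, against 3.25% to 5.92% in the other 12 libraries. Their sums over 6 cycling-cell markers were 1825 and 1846, with a range of 341 to 961 over the rest of the knockouts and 157 to 274 over controls. Their sums over 6 cholangiocyte markers were 2765 and 3735, with 3122 in knockout 3 and 655 to 1230 in controls. The part of these in the Afp values was not tested. Over all 14 libraries, 4 of 6 markers of each of these lists were called higher. Of 8 hepatocyte markers, 5 were called lower, Alb among them, where 11.5% of all genes tested were called higher and 11% lower. These counts hold for the size factors of the authors. No marker of the 8 cell-type lists was at 0 in all libraries. The Kupffer cell, stellate cell, lymphocyte and erythroid lists had 0 markers called in the limma fit, and of the endothelial list 2 of 6 were lower.

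The genes whose level followed Afp most closely, after the mean of each group was subtracted, were Vmn2r3 (Pearson r = 0.951), a gene of the vomeronasal receptor family, Pmm1 (0.933), a phosphomannomutase, and Mknk1 (0.932), a kinase of the translation factor eIF4E, over 14 libraries. For all 3, knockouts 6 and 7 were the highest libraries, as they were for Afp, and these r were not recomputed without those 2 libraries. Mknk1 had 407 and 413 there, where the rest of the knockouts had 169 to 208 and the controls 217 to 244. Pmm1 had 340 and 347, against 51.7 to 99.2 and 48.6 to 101. The closest to Alb were Ces1c (0.918), a secreted carboxylesterase, Cdc40 (0.902), a splicing factor, and Papss2 (0.889), which makes the sulfate donor PAPS. These correlations share libraries, depth and size factors. Among the members themselves, Alb ran with Afm at 0.69 and with Gc at 0.60 on the same measure.

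Other genes that liver silences after birth were read beside Afp. Of 13 listed, 12 were tested, 2 rose, 0 fell and 10 did not pass, where 11.5% of all genes rose and 11% fell. The median log2 change was 0.25 against 0.05 over all genes. H19, an imprinted noncoding RNA and known target of Zhx2, rose by 3.45 on the log2 scale (limma, SE 0.75, adjusted p = 0.00426), with means of 37.5 ± 25.5 (SD, n = 6) and 617 ± 574 (SD, n = 8). Its highest library was knockout 3, at 1783, which had an Afp value of 21.7. Lpl, lipoprotein lipase and a further target of Zhx2, rose by 1.19 (SE 0.34, limma adjusted p = 0.0209), to 1994 and 1851 in knockouts 6 and 7 and 1859 in knockout 3. Under equal sums, which also raised the median of all genes, 6 of the 12 passed as higher, against 33.3% of all genes. Lpl lost its call without knockouts 6 and 7 (limma adjusted p = 0.0589), without control 6 (0.0502) and in Y-positive libraries (0.255), where H19 lost its own (0.0942).

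The library pattern of Afp was found in part of that list, in genes singled out after their values were seen. Gpc3, a cell-surface proteoglycan, had 521 and 567.8 in knockouts 6 and 7, where the rest of the knockouts had 37.7 to 126 and controls 40.1 to 97.6. Peg3, an imprinted zinc finger gene, had 1347 and 662 there, with 91.7 to 163 over the remaining knockouts and 206 to 366 over controls. Igf2bp3, an RNA-binding protein of fetal tissues, had 83.1 and 58.5, above the next highest library, knockout 3, at 28.1. For these 3 of 13 genes both libraries lay above the other 12, as they did for 9.76% of all genes tested. Igf2 and Dlk1, also fetal, had 13.4 and 10.2, and 4.89 and 14.2, in the same 2 libraries, within the ranges of the controls or below them. Across all 8 knockouts none of these 5 genes passed the limma test; without knockouts 6 and 7, Peg3 passed as lower (-1.17, limma adjusted p = 0.000895).

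**Figure D4:**
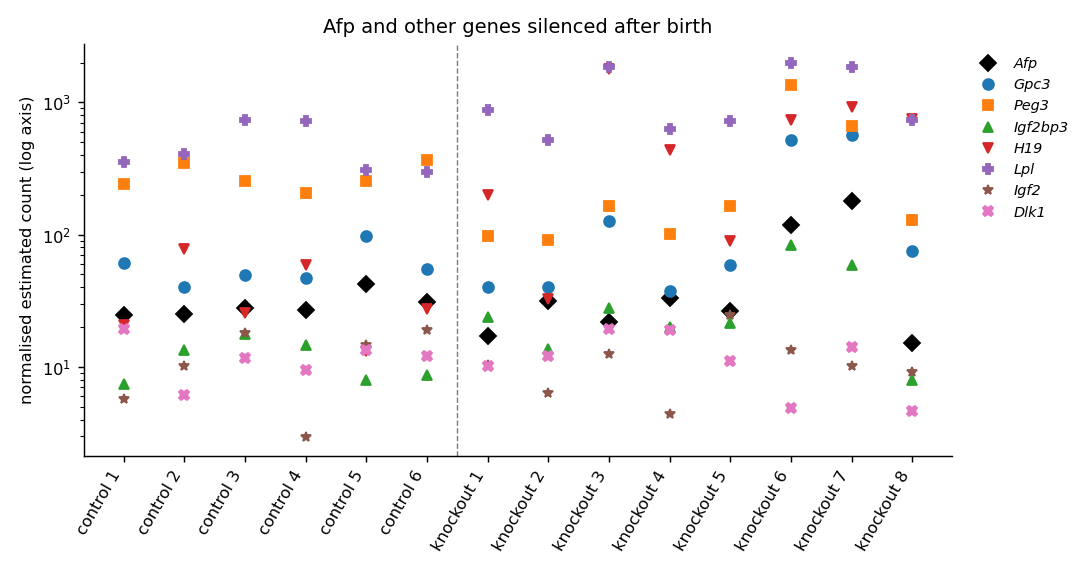
Normalised estimated count (y axis, log scale) of Afp (black diamonds) and 7 other genes silenced in liver after birth, in each of the 14 libraries (x axis), with a dashed line between controls and knockouts. Afp, Gpc3, Peg3 and Igf2bp3 are highest in knockouts 6 and 7, H19 is highest in knockout 3, and Igf2 and Dlk1 stay between 2.95 and 24.5.

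Zhx2, the repressor behind persistence of Afp in some mouse strains, had control values of 493.2, 356, 623, 540, 440 and 477. The knockouts had 472, 486, 567, 389, 475, 414, 405 and 269. The groups overlapped, and the lowest value, in knockout 8, came with the lowest Afp value, 15.1. Zhx2 differed by -0.18 on the log2 scale (limma, SE 0.16, adjusted p = 0.457), from 488 ± 90.3 (SD, n = 6) to 435 ± 87.8 (SD, n = 8). Under equal sums, which moved the median of all genes up by 0.33 to 0.38, the change of Zhx2 was 0.16. Knockouts 6 and 7, with the highest Afp, had Zhx2 values of 414 and 405, inside the range of the controls.

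Zbtb20 had control values of 392, 357, 521, 411, 355 and 375, and knockout values of 477, 408, 414, 528, 352, 387, 348 and 415. The groups overlapped over nearly their whole range. Zbtb20 differed by 0.05 on the log2 scale (limma, SE 0.12, adjusted p = 0.797), from 402 ± 62.0 (SD, n = 6) to 416 ± 60.8 (SD, n = 8). Under equal sums it was 0.39 and passed (limma adjusted p = 0.0119), near the shift of 0.33 that this scaling gave all genes. Knockouts 6 and 7 had 387 and 348.

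Whether Afp followed either repressor was tested within groups. In controls (n = 6) the correlation of Afp with Zhx2 was r = -0.0803 (exact permutation p = 0.861; rho = -0.0857, p = 0.919) and with Zbtb20 r = -0.303 (p = 0.496; rho = -0.314, p = 0.564). Over all 8 knockouts no r was tested, because Afp falls into separate clusters there. In the 6 knockouts other than 6 and 7, r was 0.401 with Zhx2 (exact permutation p = 0.460; rho = 0.257, p = 0.658) and 0.0829 with Zbtb20 (p = 0.864; rho = -0.0286, p = 1). None passed after adjustment over the 4 relations (adjusted p = 0.864 for each r and 1 for each rho). Without the 2 libraries farthest from the median of the repressor, r was -0.811 and -0.0282 in controls and -0.102 and -0.452 in knockouts, on 4 libraries each. Over all 14 libraries with group means subtracted, which include knockouts 6 and 7, r was -0.00207 with Zhx2 and -0.399 with Zbtb20, given as a description. The deposited technical variance, as an SD on the natural log scale, came to 0.174 for Afp, 0.183 for Zhx2 and 0.0462 for Zbtb20. In controls, the spread relative to the mean was 22.4% for Afp and 18.5% for Zhx2, of similar size. With such noise and 4 to 6 libraries, an r near 0 cannot show that Afp did not follow either repressor.

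The genes nearest in pattern to Zhx2, within groups, were Zfp526 (r = 0.839), Mms19 (0.837) and Zfp362 (0.836). The first and last encode zinc finger proteins, and Mms19 serves iron-sulfur protein assembly. Nearest to Zbtb20 were Atxn1 (0.860), Ahcyl2 (0.856) and Pip4k2b (0.839), over the same 14 libraries. Of 5 relatives and partners of Zhx2, 1 rose, 1 fell and 3 did not pass (median 0.11). Of all genes, 11.5% rose and 11% fell. Under equal sums 3 rose and 0 fell, where 33.3% of all genes rose. Nfyb and Nfyc are subunits of NF-Y, the CCAAT-binding factor with which Zhx2 was found to interact. Nfyb had -0.43 (SE 0.13, limma adjusted p = 0.0308) and Nfyc 0.31 (SE 0.09, limma adjusted p = 0.0245). Nfyb did not pass under equal sums (limma adjusted p = 0.554). Both calls were lost without knockouts 6 and 7 (limma adjusted p = 0.0866 and 0.0596), Nfyb without any 1 of control 1 to 4 or knockout 2, 6 or 7, and Nfyc without control 2 or 5. The authors' q did not pass Nfyc (0.0766) and passed Nfyb (0.0134). Nfyc also lost its call in Y-positive libraries (limma adjusted p = 0.0777). Nfyb lost its own with no filter (0.0609) and with log2 reads as a covariate (0.0846).

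Of 16 factors known to activate Alb or Afp, 7 fell, 0 rose and 9 did not pass, where 11% of all genes fell and 11.5% rose, with a median log2 change of -0.33 against 0.05 over all genes. Under equal sums 3 fell and 4 rose, where 3.69% and 33.3% of all genes did (median 0.01 against 0.38), and after quantile normalization 4 fell and 0 rose. Dbp, named for its binding to the D site of the Alb promoter, fell by 1.16 on the log2 scale (limma, SE 0.17, adjusted p = 0.000266), with means of 3164 ± 358 (SD, n = 6) and 1455 ± 402 (SD, n = 8). Every knockout was below every control. Onecut1, a homeodomain factor of hepatocyte development, fell by 1.35 (SE 0.36, limma adjusted p = 0.0140), Foxa3 by 0.96 (SE 0.18, adjusted p = 0.00155) and Foxa1 by 0.58 (SE 0.18, adjusted p = 0.0328). The Foxa proteins are forkhead factors that open liver enhancers. Onecut1 (limma adjusted p = 0.0841) and Foxa1 (0.0710) lost their calls without knockouts 3, 6 and 7, and Foxa1 also under equal sums (0.251), with the replicate number as a block (0.0544), with log2 reads as a covariate (0.0545), with no filter (0.0701) and without control 1, 3 or 4 or knockout 3 or 7.

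Around the cluster, 26 other genes lie within 500 kb of the span from Alb to the end of Afm, and 15 were tested. Of these 2 fell, 0 rose and 13 did not pass, near the 11% of all genes called lower, with a median of -0.18 against 0.05 over all genes. Under equal sums 2 fell and 2 rose, where 33.3% of all genes were called higher. Albfm1 fell, with means of 936 ± 292 (SD, n = 6) and 471 ± 145 (SD, n = 8) and a log2 change of -1.003 (limma, SE 0.22, adjusted p = 0.00419). Its controls ran from 700.5 to 1480 and its knockouts from 249 to 675, so the ranges did not overlap. Gm43449, a noncoding gene on the strand opposite to Afp, at 90499088 to 90515931, fell by 1.54 (SE 0.40, limma adjusted p = 0.0115), from 32.7 ± 17.2 (SD, n = 6) to 11.3 ± 8.08 (SD, n = 8). In knockouts 6 and 7, where Afp was highest, Gm43449 had 4.63 and 4.80. Knockout 3, with an Afp value of 21.7, had a similar Gm43449 value of 4.83. These low values rest on few reads, and a relation of Gm43449 to Afp was not tested. Whether reads were counted by strand is not given in the sources used here. The annotated transcripts of Afp share no 31-base stretch with those of Gm43449. Whether reads from outside the annotated Afp transcripts were counted for Gm43449 was not tested. Gm43449 lost its call without knockouts 3, 6 and 7 (limma adjusted p = 0.0701). Near Gc, 2 of 7 other genes were tested and 0 were called, the smaller p being that of Adamts3, a procollagen protease, at -0.62 (limma adjusted p = 0.242).

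**Figure D5:**
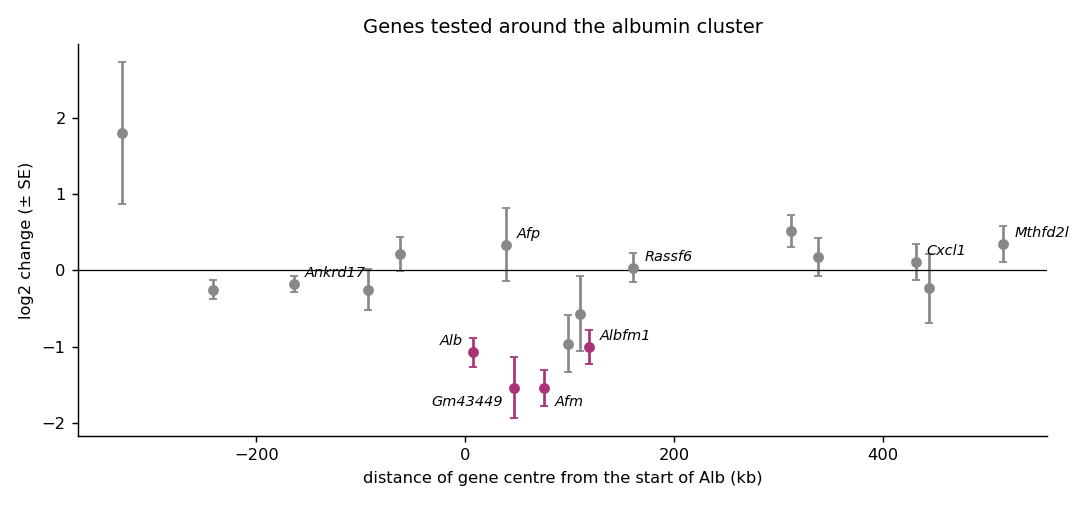
Log2 change with its SE (y axis) of Alb, Afp, Afm and the 15 other genes tested around them, by the distance of the centre of each gene from the start of Alb in kb (x axis). Purple points passed as lower: Alb (-1.07), Gm43449 (-1.54), Afm (-1.54) and Albfm1 (-1.003); grey points, Afp (0.34) among them, did not pass.

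Proteins that recycle, take up or work with the family's cargo were read next. Of 10 listed, 7 were tested, 3 fell, 0 rose and 4 did not pass, with a median of -0.39 against 0.05 over all genes, of which 11% fell and 11.5% rose. Under equal sums 2 fell and 2 rose, against 3.69% and 33.3% of all genes. Fcgrt and B2m encode the 2 chains of the neonatal Fc receptor, which returns albumin from endosomes to plasma. Fcgrt fell by 0.41 (SE 0.09, limma adjusted p = 0.00343) and B2m by 0.77 (SE 0.14, adjusted p = 0.00102), but Fcgrt did not pass under equal sums (0.568) and neither did after quantile normalization (0.123 and 0.0943). Cyp27a1, a sterol 27-hydroxylase that can also hydroxylate vitamin D, fell by 1.14 (limma, SE 0.18, adjusted p = 0.000517), with means of 4432 ± 497 (SD, n = 6) and 2089 ± 632 (SD, n = 8). With the size factors of the authors, every knockout was below every control for all 3 genes, as for 4.02% of all genes tested.

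Of 20 other plasma proteins made by hepatocytes, 9 fell, 0 rose and 11 did not pass, with a median log2 change of -0.60 against 0.05 over all genes, of which 11% fell. Under equal sums 5 fell and 2 rose, where 3.69% of all genes fell and 33.3% rose. The list's median stayed below that of all genes there (-0.26 against 0.38). After quantile normalization 2 fell and 3 rose, where 10.2% of all genes fell and 10% rose. The sign of the list's median turned there (0.0620 against -0.00304). Fetub, a fetuin, fell by 1.24 (SE 0.20, limma adjusted p = 0.000438) and Rbp4, the retinol carrier, by 1.03 (SE 0.16, adjusted p = 0.000448). Vtn, vitronectin, fell by 0.86 (SE 0.22, limma adjusted p = 0.0102) and Ambp, the precursor of alpha-1-microglobulin and bikunin, by 0.83 (SE 0.15, adjusted p = 0.00138). The fall of Alb (1.07) lay between those of Fetub and Vtn, that of Afm (1.54) was larger than any of these 4, and that of Gc (0.39) was smaller than the list's median. After quantile normalization Vtn (limma adjusted p = 0.409) and Ambp (0.219) did not pass.

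Per kb of the longest coding transcript, the order in controls was Alb (91041), Gc (48447), Afm (2336), Zhx2 (112), Zbtb20 (14.9) and Afp (14.4), as mean values per kb. Each of the first 4 was above the next without overlap, and Zbtb20 and Afp overlapped. The place of Zbtb20 rests on the length of its longest coding transcript, 26901 bases. Not divided by length, its control mean was 402, against 29.7 for Afp and 488 for Zhx2. In knockouts Alb (43613) overlapped Gc (37141), and Afm (855) was separate from both. Zhx2 (99.3), Afp (26.9) and Zbtb20 (15.5) each overlapped the next. Alb and Gc, separate in controls, thus overlapped in knockouts. Afp stood above Zbtb20 in the order of means per kb there, with its mean raised by knockouts 6 and 7. Not divided by length, the knockout mean of Zbtb20 was 416 and that of Afp 55.6.

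The m6A mark was not measured. As a description of the transcripts, the core letters GGACT of the sites where Mettl3 acts occurred 1.62 times per kb in Afm and 1.67 in Gc, and 0.49 in Alb and 0.48 in Afp. Zhx2 had 0.69 and Zbtb20 0.71 per kb, and the median over 16146 genes was 1.03. The called members were thus found on both sides of that median, Alb below it and Afm and Gc above it.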

How the data were processed

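Total RNA of mouse liver was sequenced from 14 libraries of a stranded low-input kit, per the labels' protocols. The submitters' processing notes name kallisto, sleuth and the build mm10; versions, filters and the strand setting are not given in the sources used here. The authors deposited, for each library, a signal per gene, which from the values is an estimated count over that library's size factor. The authors deposited p-values and q-values of their Wald test for 27865 genes. The change they deposited is a natural log, control minus knockout, of ln(value + 0.5), including the column named as log2, which was therefore not used as one.

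The 75859 deposited lines were reduced to 1 per gene. limma 3.58.1 in R 4.3.3 (trended prior variance, no covariate) was run on log2(value + 1) for the 23554 genes that reached 10 in 6 or more libraries. Adjusted p is by Benjamini-Hochberg over all of these, and at most 0.05 was called. Changes on this scale understate those of low genes. Ratios to Alb were compared by exact permutation over 3003 regroupings. The fit was tested on simulated data. Whether the replicate numbers pair the libraries is not settled, and no block was used in the main fit. Deviations of same-numbered libraries correlated at 0.0707 to 0.228, and differently numbered libraries were not compared. Positions are from GENCODE M21 and promoter sequences from RefSeq GRCm38.p6, on which start sites can differ by some bases from GENCODE. For Zbtb20 the RefSeq start used lies well inside the GENCODE span.

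The members and lists were chosen with earlier results of these data known. Named genes were the members, Mettl3, up to 4 called genes of each list with the largest change (or the smallest p), called neighbours, and the 3 genes with the highest r to Alb, Afp, Zhx2 and Zbtb20 among genes above the median value, without predicted genes and pseudogenes. A result on a single gene of the activator list is not reported here, and the counts of that list include the gene. Correlations had been planned over 8 knockouts and were taken over 6. Alternatives covered the pseudocount (0.1), filter, threshold (0.01), the authors' q, scaling, voom weights, covariates, each Xist class, libraries left out and the replicate block. Depth limits Afp most, with 9.37 to 113 estimated reads per knockout library.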

Additional observations from a re-analysis of the deposited data

Results flagged for a closer look

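Of 54 groups of values checked, 3 had 1 library far from the others, against about 1 in 20 that chance gives. Afp in controls was highest in control 5, at 42.4, with the next at 31.1. Zbtb20 in controls was highest in control 3, at 521, with the next at 411. Gm43449 in knockouts was highest in knockout 5, at 29.1, with the next at 13.6.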

How the results depend on the processing

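Alb and Afm were lower under every alternative run. Alb did not pass after quantile normalization (-0.63) or in Xist-high libraries (-1.25), nor Afm in Xist-high libraries (-1.73), where 172 genes were called higher and 47 lower. Afp reversed in Y-positive libraries (-0.0600), without knockouts 3, 6 and 7 (-0.30) and without 6 and 7 (-0.32, chosen after seeing the data). Gc did not pass at 0.01 (-0.39), by the authors' q (-0.39), without a filter (-0.39, limma adjusted p = 0.0941), under equal sums (-0.0496), with log2 reads as a covariate (-0.36), in Y-positive (-0.34) or Xist-high libraries (-0.43), without knockouts 3, 6 and 7 (-0.33) or 6 and 7 (-0.34), and reversed under quantile normalization (0.19). Leaving out 1 library moved Gc from -0.42 to -0.36 and ended its call in 8 of 14 cases (controls 2, 4, 5 and 6, knockouts 3, 4, 6 and 7). Zhx2 reversed under equal sums (0.16), where Zbtb20 passed (0.39) and the median of all genes was 0.38. Without 1 library Zbtb20 ran from -0.000780 (without knockout 4) to 0.13. Adamts3 reversed in Y-positive libraries (0.0949).

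Genes called higher numbered 2697, and 1311 at 0.01, 7836 under equal sums and 1740 in Y-positive libraries; genes called lower numbered 2583, and 1358 at 0.01 and 868 under equal sums. The ratio to Alb did not pass for Afp in Y-positive (0.98) or Xist-high libraries (1.82), without knockouts 3, 6 and 7 (0.66) or 6 and 7 (0.71), with a range of 1.07 to 1.62 without 1 library. For Afm these were -0.41, -0.49, -0.19 and -0.31, with a range of -0.56 to -0.37. For Gc they were 0.70 and 0.82 in the classes, with a range of 0.62 to 0.75. In Xist-high libraries the exact test cannot go below p = 0.0667. The r of Afp with Zhx2 reversed in controls under equal sums (0.116) and in knockouts without the 2 farthest libraries (-0.102), and with Zbtb20 to 0.0195 and -0.452. Correlations without knockouts 3, 6 and 7 were not run, with 5 knockouts left. For the other named genes, 465 values under alternatives kept sign and call, 66 lost the call and 1 reversed. The cause of these shifts was not tested.

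With the replicate number as a block over numbers 1 to 6, Gc had -0.39 and did not pass (limma adjusted p = 0.160), and no other member changed its call; of the other named genes Foxa1 (-0.61, 0.0544) lost its call. Same-numbered libraries deviated together at 0.228, 0.225, 0.0707, 0.191, 0.142 and 0.158. Differently numbered libraries were not compared, so these values do not settle whether the numbers pair. In the main fit the numbers were not taken as pairs.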
